A study of Mus musculus with 6 samples.

Results

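The 10 genes described here encode the enzymes and a transporter that decide how the amino acid arginine is used in the vessel wall, together with the steps that follow nitric oxide in smooth muscle. They are the arginases Arg1 and Arg2, the nitric oxide synthases Nos1, Nos2 and Nos3, the dimethylarginine hydrolases Ddah1 and Ddah2, the arginine carrier Slc7a2, the kinase Prkg1 and the phosphodiesterase Pde5a. They were selected by function from the mouse symbols of the 47643 genes in the count table, but the selection was made with the EPO-against-Vehicle values of these same libraries known. Their differences between the groups are therefore given as a description, without p-values, and nothing is supported with them. RNA came from whole aortas of Apoe-/- mice, which lack apolipoprotein E and develop atherosclerosis. Both groups carried this deletion. The EPO group (n = 3 libraries) had recombinant human erythropoietin, the hormone of red cell production, at 5000 IU/kg/day by the intraperitoneal route for 4 weeks, a dose the series calls medium, and the Vehicle group (n = 3) had saline for the same 4 weeks. The sources used here do not give the age and sex of the mice, and nothing in the labels states that each library is a separate animal, so the spread between libraries may be technical.

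Nitric oxide is made from arginine by the synthases: Nos3 in endothelium, Nos1 in nerve and skeletal muscle, and the inducible Nos2 in activated macrophages and smooth muscle. It diffuses to smooth muscle, where it switches on soluble guanylate cyclase. The cyclic GMP formed acts through the kinase encoded by Prkg1 to relax the muscle and is broken down by the enzyme encoded by Pde5a, the target of sildenafil. Arginases compete for the same arginine and turn it into ornithine, the precursor of polyamines and of proline. Asymmetric dimethylarginine (ADMA), a methylated arginine released from proteins, inhibits the synthases, and the enzyme encoded by Ddah1 degrades it. Ddah2 is named for the same activity, which was not measured here.

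Total counts ran from 23278649 to 27904322 in Vehicle and from 28798632 to 38502430 in EPO, so that a gene with 0 counts could lie at up to 0.0779 to 0.129 CPM from counting error alone. CPM are read counts scaled for the size and composition of each library. Of marker lists for cell types, the smooth muscle list lay lower with EPO, with summed levels of 20050 to 28540 CPM in Vehicle and 7230 to 9336 CPM in EPO (8 of 8 genes called lower). The endothelial list overlapped between the groups (1570 to 1733 and 1267 to 1780 CPM; of 10 genes, 2 called higher and 1 lower). The skeletal muscle list stood at 7.97 to 21.6 CPM in Vehicle and at 1266, 3051 and 348.6 CPM in EPO 1, 2 and 3 (11 of 11 tested genes called higher). The macrophage list stood at 2095, 3760 and 4111 CPM in Vehicle 1, 2 and 3 and at 10005, 4775 and 4315 CPM in EPO 1, 2 and 3 (of 11 genes, 2 called higher and 1 lower), which sets EPO 1 apart. The white adipocyte list stood at 2645 to 5697 CPM in Vehicle and 1441 to 2540 CPM in EPO (5 of 8 genes called lower), the mast cell list at 53.6 to 65.3 and 23.5 to 40.8 CPM (4 of 6 tested genes called lower), and the Schwann cell and neuron list at 399 to 613 and 196 to 231 CPM (1 of 10 genes called lower). Ncam1, the called gene of the last list, was its largest part in every library (305 to 393 CPM in Vehicle and 96.7 to 153 CPM in EPO). No marker of any list was at 0 counts over a whole group. In whole tissue, fewer cells of a type and less RNA per cell cannot be told apart.

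All 10 members passed the filter on low counts. Called genes are those that edgeR's test over all genes put under an adjusted p of 0.05. Of the members, 5 were called higher with EPO (Arg1, Arg2, Nos2, Ddah1 and Slc7a2), where 12.9% of all 16522 genes tested were, and 1 was called lower (Pde5a), where 10.1% of all genes were. In either direction 23.0% of genes were called. The CPM values of the groups did not overlap for 8 members (6 higher and 2 lower), against 43.8% of all genes. The median log2 fold change of the members was 0.90 and that of all genes tested 0.01. Since the members were chosen with this contrast known, nothing is read from these counts.

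**Figure D1:**
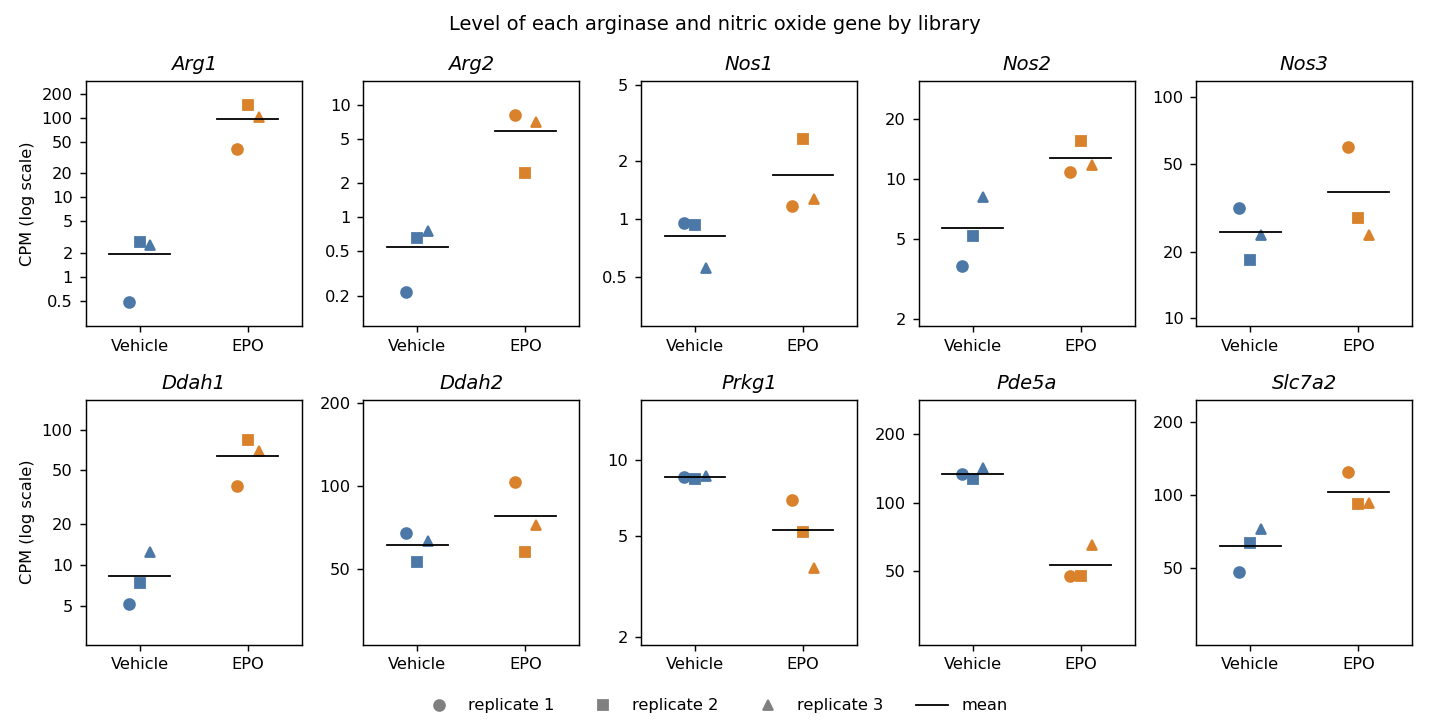
CPM of each of the 10 genes on log axes, which differ between panels, with 1 point per library, its replicate number shown by the symbol, and the group mean as a line. Arg1, Arg2 and Ddah1 lie in all 3 EPO libraries above every Vehicle library, Pde5a and Prkg1 lie below, and the groups overlap for Nos3 and Ddah2.

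Arg1, the cytosolic arginase of liver that macrophages can also switch on, differed most (ENSMUSG00000019987, GRCm38 chromosome 10, 24915221 to 24927484, minus strand). Reads counted on Arg1 numbered 11, 70 and 73 in Vehicle 1, 2 and 3, while EPO 1, 2 and 3 held 1451, 4310 and 3424. This is 0.478, 2.72 and 2.52 CPM in Vehicle against 40.5, 146 and 103 CPM in EPO, with means of 1.91 ± 1.24 and 96.6 ± 53.2 CPM (SD, n = 3 each). The lowest EPO library was 14.9-fold above the highest Vehicle library. The fitted difference was 49.8-fold (log2 fold change 5.64, SE 0.69). Within each group the libraries still differed widely, 5.69-fold between the highest and lowest Vehicle library and 3.62-fold within EPO. In the fits with 1 library left out, the log2 fold change of Arg1 lay between 5.18 (without Vehicle 1) and 5.98 (without EPO 1).

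Arg2, the mitochondrial arginase of many tissues outside the liver, was less abundant (ENSMUSG00000021125, chromosome 12, 79130777 to 79156301, plus strand). Its values were 0.217, 0.661 and 0.759 CPM in Vehicle, from only 5, 17 and 22 counts, and 8.09, 2.48 and 7.00 CPM in EPO, from 290, 73 and 233 counts. The groups did not overlap, and the fitted log2 fold change was 3.40 (SE 0.59). EPO 2, the library with the highest Arg1, had the lowest Arg2 of the EPO group. The Arg2 counts are uncertain because 401 of its 1428 exon bases (28.1%) are shared with genes on the opposite strand. The strand setting of the counting is unknown. The shared bases are 285 with Vti1b and 116 with Gm48780, for which no counts were available. Vti1b stood at 92.8 to 104 CPM in Vehicle and 80.8 to 108 CPM in EPO.

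On counts per kb of exon, which allow levels to be compared between genes, Arg1 made up 66.3% ± 7.15 of the 2 arginases in Vehicle and 88.0% ± 10.8 in EPO (SD, n = 3). The single libraries stood at 58.5%, 72.5% and 68.0% in Vehicle and at 76.2%, 97.4% and 90.4% in EPO. As a share of the raw counts, Arg1 was 68.8% in Vehicle 1, with a Wilson 95% interval of 44.4% to 85.8% because only 16 arginase counts were found, and 98.3% in EPO 2, with an interval of 97.9% to 98.7% from 4383 counts. Such intervals cover counting error only. The sum of both arginases went from 1.24 ± 0.75 CPM per kb in Vehicle to 47.5 ± 22.0 CPM per kb in EPO.

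Markers of other cell types differed between libraries as well, though not every list separated the groups. EPO 1 had the largest macrophage sum, 10005 CPM, and the lowest Arg1 of the EPO group. Relative to the macrophage sum, Arg1 lay at log2 ratios of -12.1, -10.4 and -10.7 in Vehicle and of -7.95, -5.03 and -5.39 in EPO, without overlap. Summed neutrophil markers stood at 21.9, 24.8 and 66.8 CPM in Vehicle and 58.2, 105 and 574 CPM in EPO, with overlap. Of 9 tested neutrophil genes, 2 were called higher and none lower. Summed fibroblast markers stood at 9842 to 12018 CPM in Vehicle and 42912 to 53187 CPM in EPO. The collagen genes Col1a1 and Col1a2 carried most of the fibroblast sum, and of its 8 genes 3 were called higher and none lower. The part of macrophages, neutrophils or fibroblasts in the Arg1 values was not tested. Among the genes searched, H19, Cthrc1 and Inava had the log2 CPM profiles over the 6 libraries nearest to that of Arg1. Their root mean square differences from it were 0.74, 0.76 and 0.78 (log2). This search, also used for Nos3 and Prkg1, left out genes without a symbol or with a symbol of the Gm-number or Rik kind. H19, an imprinted non-coding RNA, went from 1.70 to 2.80 CPM in Vehicle to 71.3 to 337 CPM in EPO, and Cthrc1, a secreted protein first found in injured arteries, from 1.74 to 5.87 CPM to 43.2 to 127 CPM.

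Nos3, the endothelial synthase, was the most abundant of the 3 synthases in every library (ENSMUSG00000028978, chromosome 5, 24364810 to 24384474, plus strand). It stood at 31.6, 18.4 and 23.8 CPM in Vehicle and at 59.3, 28.4 and 23.9 CPM in EPO. Only EPO 1 lay above all Vehicle libraries, so the groups overlapped, and Nos3 was not among the called genes (log2 fold change 0.60, SE 0.36). Without EPO 1 the log2 fold change was 0.08, and without EPO 1 and EPO 2 it was -0.04. Nos3 shares 294 exon bases with Atg9b and 1040 with the antisense RNA Gm15587, of 4132 in all (32.3%). With the strand setting unknown, the Nos3 counts are uncertain, like those of Arg2. Both partners were low, at 1.17 to 2.72 CPM for Atg9b and 0.0601 to 0.509 CPM for Gm15587 over all libraries. The partner counts are uncertain for the same reason. Relative to the endothelial markers, the log2 ratio of Nos3 was -5.67, -6.42 and -6.19 in Vehicle and -4.91, -5.75 and -5.73 in EPO, again with overlap. The nearest profiles to Nos3 were those of Rpl5-ps2, a pseudogene under 1 CPM in every library whose reads may belong to other copies, Ppp2r3d and Slc35e4 (root mean square differences 0.12, 0.14 and 0.16, log2). Each of these genes also had its highest value in EPO 1.

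Nos2, the inducible synthase, stood at 3.69, 5.21 and 8.14 CPM in Vehicle and at 10.9, 15.4 and 11.7 CPM in EPO (ENSMUSG00000020826, chromosome 11, 78920787 to 78960254, plus strand). The groups did not overlap, with 1.34-fold between the lowest EPO and the highest Vehicle library. The fitted difference was 2.22-fold (log2 fold change 1.15, SE 0.30). Nos2 left the called genes without Vehicle 1, Vehicle 2, EPO 2 or EPO 3, where its log2 fold changes were 0.89, 1.07, 0.99 and 1.20. Relative to the macrophage markers Nos2 overlapped between the groups, at log2 ratios of -9.15, -9.50 and -8.98 in Vehicle and -9.85, -8.28 and -8.53 in EPO. The difference in Nos2 was smaller than that in Arg1. The ratio of Arg1 to Nos2, on CPM per kb, was 0.256, 1.03 and 0.613 in Vehicle and 7.37, 18.8 and 17.4 in EPO.

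Nos1, the neuronal synthase, was low in all libraries (ENSMUSG00000029361, chromosome 5, 117781032 to 117958840, plus strand). Its 22, 24 and 16 reads in Vehicle stood against 42, 77 and 42 reads in EPO, or 0.956, 0.933 and 0.552 CPM against 1.17, 2.61 and 1.26 CPM. The groups did not overlap, but Nos1 was not called (log2 fold change 1.05, SE 0.43). Its highest value was in EPO 2, the library with most skeletal muscle markers, and without EPO 2 the log2 fold change was 0.59. The part of skeletal muscle in the Nos1 values was not tested. The log2 ratio of Nos1 to the skeletal muscle sum was -4.84 to -3.10 in Vehicle and -10.2 to -8.11 in EPO. The sum in this ratio was only 7.97 to 21.6 CPM in Vehicle.

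Among the synthases, on counts per kb, Nos3 held 80.8% ± 7.43 in Vehicle and 72.5% ± 10.8 in EPO (SD, n = 3), Nos2 18.2% ± 7.49 and 26.2% ± 10.1, and Nos1 1.04% ± 0.41 and 1.39% ± 0.80. These shares differed by less than their ranges within the groups. The Nos2 share was 9.78%, 20.7% and 24.1% in Vehicle and 14.6%, 32.9% and 31.0% in EPO, where EPO 1 fell among the Vehicle libraries. The arginase sum over the synthase sum, on CPM per kb, was 0.0428, 0.295 and 0.217 in Vehicle and 1.41, 6.36 and 5.98 in EPO. The synthases together exceeded the arginases in every Vehicle library, and the arginases exceeded the synthases in every EPO library. The uncertainty of the Nos3 and Arg2 counts from shared exon bases carries over to these shares and ratios.

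**Figure D2:**
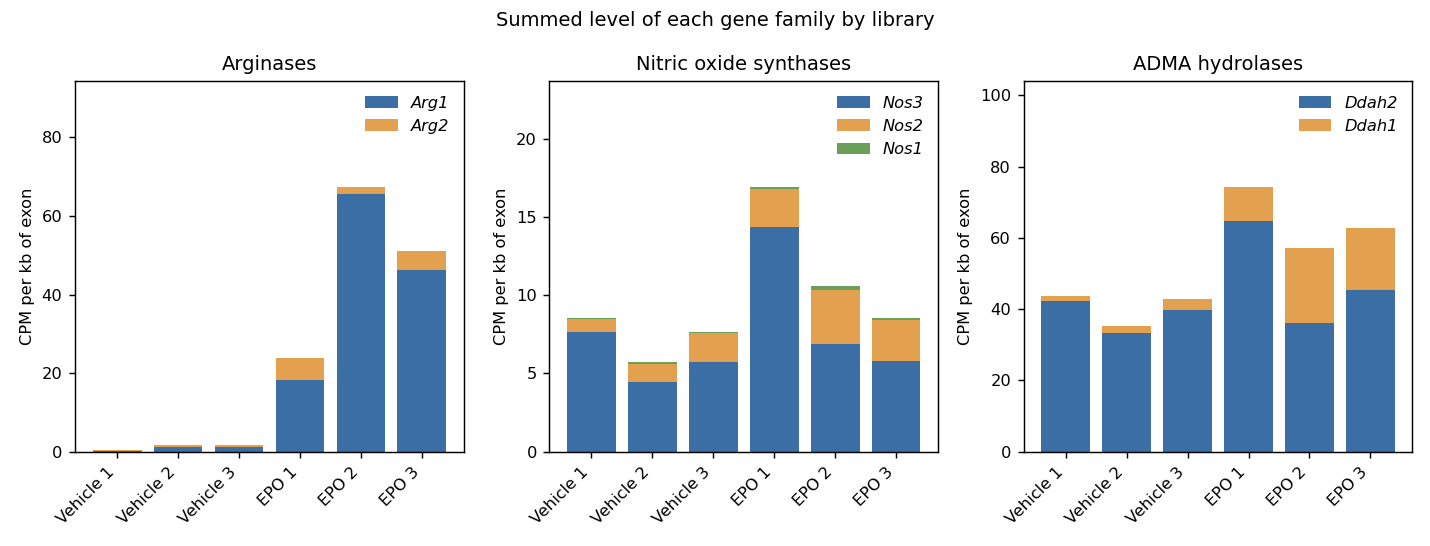
Stacked CPM per kb of exon in each of the 6 libraries for the arginases, the nitric oxide synthases and the Ddah pair. Axes are separate, linear and start from 0, and the panel of the pair is titled ADMA hydrolases after the gene names. The arginase bars grow from 1.24 (Vehicle mean) to 47.5 (EPO mean) and consist mostly of Arg1, Nos3 is the largest part of each synthase bar, and the Ddah1 part grows while Ddah2 stays the larger.

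Ddah1 and Ddah2 are named as dimethylarginine hydrolases, and of this pair Ddah1 was among the called genes and Ddah2 was not. The stretches just before their start sites are shown because the 2 genes belong to the same family and differed in response. They run 5′ to 3′ on the plus strand, from RefSeq promoter windows of GRCm38.p6, at chr3:145758442-145758674 for Ddah1 and chr17:35058785-35059017 for Ddah2. Both end before the start of the GENCODE gene. Capitals mark CpG dinucleotides.
Ddah1: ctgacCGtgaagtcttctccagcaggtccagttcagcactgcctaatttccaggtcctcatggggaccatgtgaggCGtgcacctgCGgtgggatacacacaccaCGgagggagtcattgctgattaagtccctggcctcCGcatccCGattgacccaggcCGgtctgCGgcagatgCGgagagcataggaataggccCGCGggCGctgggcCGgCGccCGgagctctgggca
Ddah2: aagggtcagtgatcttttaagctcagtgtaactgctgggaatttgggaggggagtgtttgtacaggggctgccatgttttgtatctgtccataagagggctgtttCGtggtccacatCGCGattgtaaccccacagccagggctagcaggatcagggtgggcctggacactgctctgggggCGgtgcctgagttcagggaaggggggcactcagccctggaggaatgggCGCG
Of 233 bases each, 63.1% were G or C in Ddah1 and 57.5% in Ddah2, with 15 and 6 CpG dinucleotides, against medians of 51.9% and 5 over 32544 promoter windows of the same length. Motifs were searched on both strands. TTCNNNGAA, the consensus of STAT factors such as those the EPO receptor activates, had 0 matches in Ddah1 and 1 in Ddah2 (starting at base 193) and is found in 6.56% of all windows. ACGTG, a form of the core of the hypoxia response element, and TATAAA had 0 matches in either gene, against 15.4% and 11.8% of all windows. The other form of this core, GCGTG, was not among the motifs searched. The Ddah1 stretch above holds it, and its share over all windows was not counted. GGGCGG, a GC box, had 0 matches in Ddah1 and 1 in Ddah2 (starting at base 179), against 30.5% of all windows. The motifs did not overlap. A match is a description of the letters and not evidence of binding.

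Ddah1 stood at 5.17, 7.35 and 12.5 CPM in Vehicle and at 38.4, 83.5 and 69.1 CPM in EPO (ENSMUSG00000028194, chromosome 3, 145758675 to 145894277, plus strand). The lowest EPO library was 3.08-fold above the highest Vehicle library, and the fitted difference was 7.61-fold (log2 fold change 2.93, SE 0.40). The order of the EPO libraries, with EPO 1 lowest and EPO 2 highest, was that of Arg1. Ddah2 stood at 67.4, 53.0 and 63.1 CPM in Vehicle and at 103, 57.5 and 72.3 CPM in EPO (ENSMUSG00000007039, chromosome 17, 35059035 to 35062095, plus strand). Its groups overlapped and it was not called (log2 fold change 0.34, SE 0.22; 0.08 without EPO 1). Per kb, Ddah1 held 5.18% ± 2.17 of the pair in Vehicle and 25.8% ± 12.0 in EPO, with 13.0%, 36.7% and 27.7% in EPO 1, 2 and 3. The excess of Ddah2 over Ddah1 was 32.6-, 18.0- and 12.7-fold in Vehicle and 6.71-, 1.72- and 2.62-fold in EPO, so Ddah2 was the more abundant per kb in all 6 libraries. The summed level of the pair was 40.5 ± 4.69 CPM per kb in Vehicle and 64.7 ± 8.77 CPM per kb in EPO.

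Slc7a2, the cationic amino acid transporter CAT2 that brings arginine into activated macrophages and muscle, stood at 48.0, 63.5 and 72.2 CPM in Vehicle and at 125, 91.6 and 92.9 CPM in EPO (ENSMUSG00000031596, chromosome 8, 40862396 to 40922308, plus strand). The groups did not overlap, by a margin of 1.27-fold, and the log2 fold change was 0.75 (SE 0.19). It left the called genes without Vehicle 1, Vehicle 2 or EPO 1, at log2 fold changes of 0.57, 0.76 and 0.58, and with the replicate number as a block, at 0.75. Slc7a2 shares 635 exon bases with Gm26584 on the other strand, which had 0 to 3 counts in a library.

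On the side of smooth muscle, Pde5a and Prkg1 were lower. Pde5a stood at 134, 127 and 142 CPM in Vehicle and at 47.9, 47.8 and 65.1 CPM in EPO (ENSMUSG00000053965, chromosome 3, 122728947 to 122859374, plus strand). Every Vehicle library was at least 1.95-fold above every EPO library, and the fitted log2 fold change was -1.32 (SE 0.15), a 2.50-fold lower level. Pde5a shares 55 exon bases with a gene on the other strand. Prkg1 stood at 8.56, 8.36 and 8.63 CPM in Vehicle and at 6.92, 5.19 and 3.73 CPM in EPO (ENSMUSG00000052920, chromosome 19, 30564489 to 31765033, minus strand). Its groups did not overlap, yet it was not called (log2 fold change -0.69, SE 0.25). Prkg1 was called by DESeq2 (-0.69) and in edgeR without EPO 1 (-0.94). The 3 nearest profiles were those of Fjx1, Mamld1 and Macrod1 (root mean square differences 0.08, 0.13 and 0.14, log2).

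Relative to the smooth muscle markers, which were lower as well, the groups overlapped narrowly for both genes. The log2 ratio of Pde5a to the marker sum was -7.74, -7.30 and -7.40 in Vehicle and -7.24, -7.31 and -7.16 in EPO. For Prkg1 it was -11.7, -11.2 and -11.4 in Vehicle and -10.0, -10.5 and -11.3 in EPO. The mean log2 ratio was 0.84 higher in EPO for Prkg1 and 0.24 higher for Pde5a. The part of smooth muscle RNA in the values of Pde5a and Prkg1 was not tested.

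**Figure D3:**
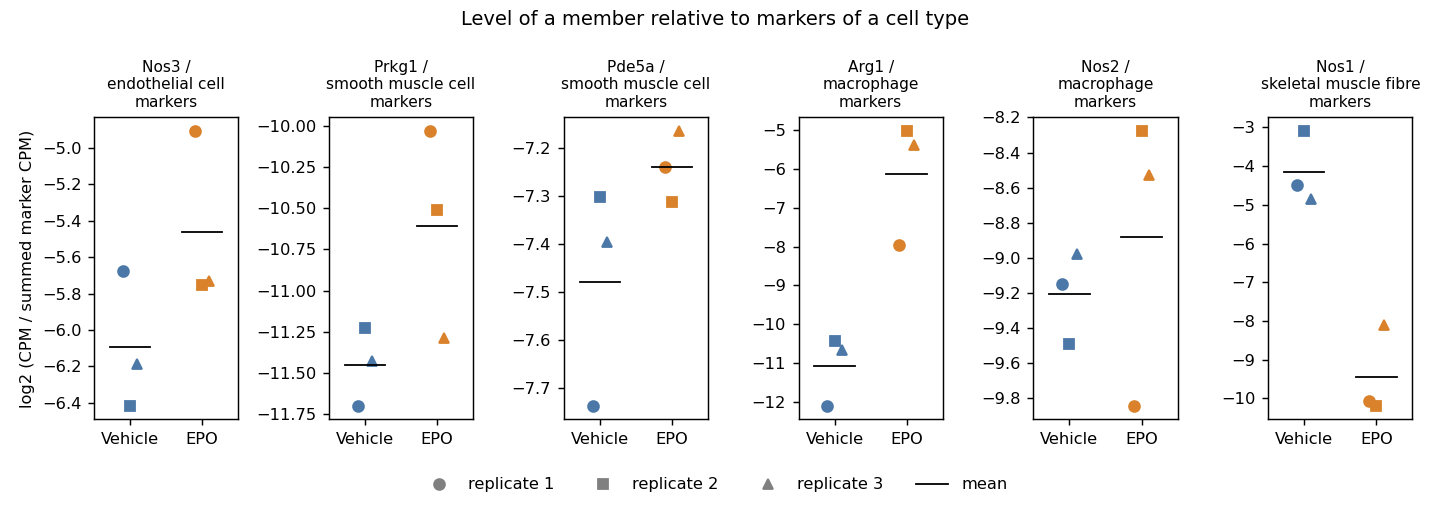
Log2 ratio of the CPM of 6 genes to the summed CPM of a cell type's markers, by group, with 1 point per library, the group mean as a line and separate axes. Arg1 lies higher relative to macrophage markers in all EPO libraries (-7.95 to -5.03 against -12.1 to -10.4), whereas Nos3, Nos2, Pde5a and Prkg1 overlap between the groups.

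In order of level per kb in Vehicle, Ddah2 came first (38.4 ± 4.66 CPM per kb), followed by Pde5a (13.7 ± 0.74), Slc7a2 (6.70 ± 1.34), Nos3 (5.95 ± 1.60), Ddah1 (2.09 ± 0.94), Nos2 (1.29 ± 0.51), Arg1 (0.86 ± 0.56), Prkg1 (0.78 ± 0.01), Arg2 (0.38 ± 0.20) and Nos1 (0.07 ± 0.02). Neighbours whose libraries overlapped there were Slc7a2 and Nos3, Ddah1 and Nos2, Nos2 and Arg1, and Arg1 and Prkg1. In EPO, Arg1 moved from the seventh place to the second (43.3 ± 23.9 CPM per kb), within the range of Ddah2 (48.7 ± 14.6), and Ddah1 to the third (16.0 ± 5.79). Pde5a moved from the second place to the sixth (5.45 ± 1.01). Only Nos2 with Prkg1 and Prkg1 with Nos1 were neighbours without overlap in EPO. Levels per kb use the length of all annotated exons together and understate genes with long alternative exons.

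Another 81 genes of arginine, nitric oxide and cyclic GMP metabolism, listed by role in 9 groups, place the members in their pathway. Of 74 tested, 13 were higher and 14 lower (36.5%, against 23.0% of all genes), with a median log2 fold change of 0.05 against 0.01 for all genes. By list the share called was 83.3% for cyclic GMP makers, 54.5% for the kinase and its targets, 42.9% for breakdown and 40% for arginase products. It was 25% for arginine supply, synthase partners and nitric oxide removal, 14.3% for tetrahydrobiopterin supply and 0% for the ADMA list. These lists too were drawn up with earlier results of these libraries known, so nothing is read from their shares, and their p-values are not independent evidence. Slc7a7, Prmt3, Carm1, Npr1, Npr2, Npr3, Pde3a, Mrvi1, Mylk, Itpr1, Mb and Qdpr share exon bases with a gene on the other strand, and their counts are uncertain to that extent. Of the remaining genes of these lists, 6 were too low to be tested and Pde2a was not analysed here. With EPO 1 and EPO 2 left out, which held the most skeletal muscle marker RNA, 9 were higher and 6 lower, in a fit that takes the lone EPO library to vary like the others.

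**Figure D4:**
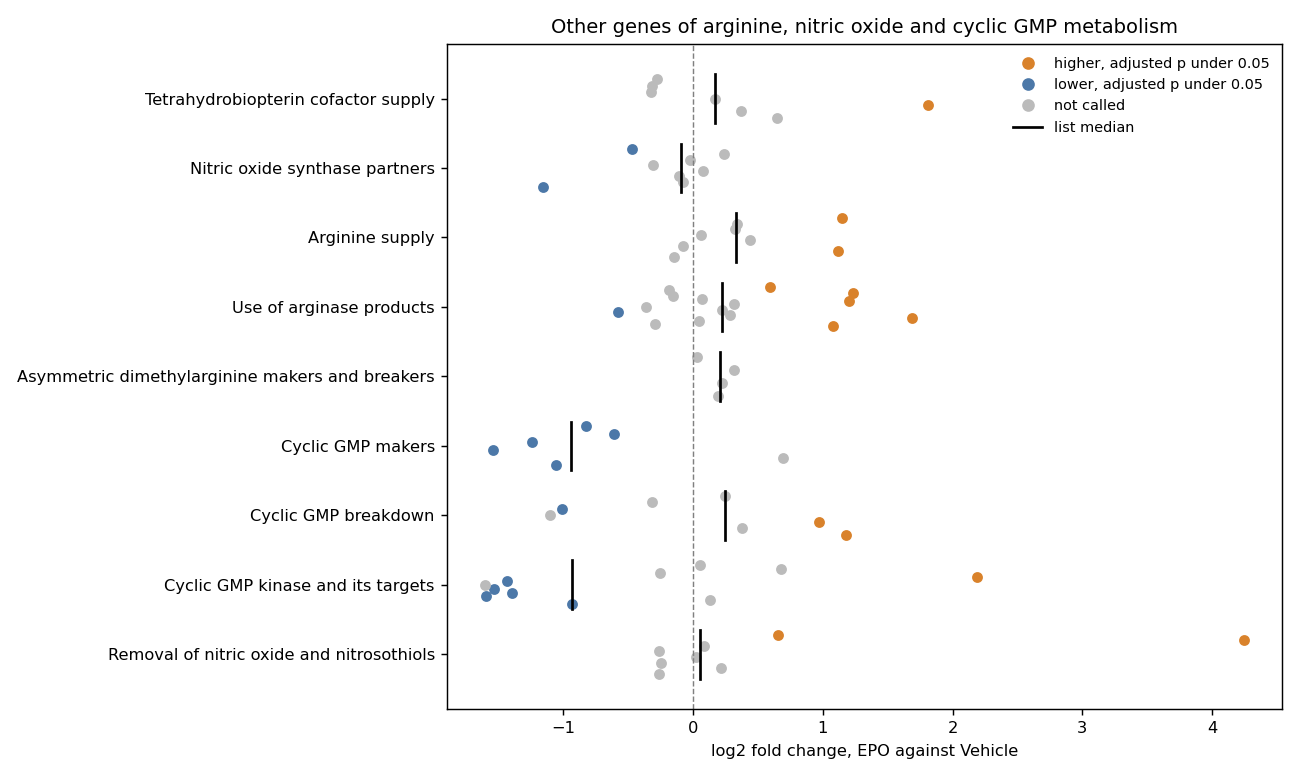
Log2 fold change of the 74 tested pathway genes outside the 10 members, by role, with 1 point per gene, coloured by the call at an adjusted p under 0.05, and a line at the median of each list. The lists of cyclic GMP makers, which also holds the clearance receptor Npr3, and of its kinase and targets lie mostly below 0, with 5 lower genes each, and the list on arginase products has 5 higher genes.

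In the list of cyclic GMP makers, most genes fell. Of 6 tested genes, 5 were lower and none was higher, and their median was -0.94 on the log2 scale. Gucy1b1, a subunit of the soluble guanylate cyclase that senses nitric oxide, stood at 177, 157 and 166 CPM in Vehicle, and in EPO at 41.7, 64.2 and 66.5 CPM (log2 fold change -1.54, SE 0.19, edgeR adjusted p = 0.00306). Its partner subunit Gucy1a1 went from 158 ± 34.0 to 75.6 ± 11.5 CPM (log2 fold change -1.06, SE 0.19, edgeR adjusted p = 0.00891), and Npr1, the receptor of atrial natriuretic peptide, from 265 ± 51.1 to 112 ± 16.2 CPM (log2 fold change -1.24, SE 0.18, edgeR adjusted p = 0.00489). For each of these 3 genes, all EPO libraries lay below all Vehicle libraries. The other lower genes, named to complete the count after their values were seen, were Npr2 (-0.61) and the clearance receptor Npr3 (-0.82), which removes natriuretic peptides and makes no cyclic GMP. The smooth muscle and white adipocyte markers were lower in the same libraries, and their part in this list was not tested. Npr3 lost its call without Vehicle 2, Vehicle 3 or EPO 3 (edgeR adjusted p between 0.0651 and 0.0844), and without EPO 1 and EPO 2 only 1 gene, Gucy1b1, was called.

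Of 11 genes that encode the second kinase of this type, kinase targets and channels, 5 were lower and 1 higher, with a median of -0.93. Ppp1r12a, the targeting subunit of myosin phosphatase, went from 235 ± 11.2 to 86.8 ± 10.7 CPM (log2 fold change -1.44, SE 0.14, edgeR adjusted p = 0.00187). Mrvi1, the kinase substrate that holds back calcium release, fell by 1.39 on the log2 scale and Itpr1, the calcium release channel it binds, by 0.93 (edgeR adjusted p = 0.00431 and 0.00335). Kcnmb1 (-1.59) and Mylk (-1.54) complete the lower genes. The higher gene was Prkg2, the type II kinase, at 2.13, 1.09 and 1.66 CPM in Vehicle and 2.20, 10.7 and 9.26 CPM in EPO, a log2 fold change of 2.19. These 3 genes were named after their values were seen. Mylk lost its call without any of the 3 Vehicle libraries or without EPO 2, and Prkg2 without any of the 3 Vehicle libraries or without EPO 2 or EPO 3 (edgeR adjusted p between 0.0646 and 0.115 in these fits). With all 6 libraries, Prkg2 also missed the threshold in limma-voom (adjusted p = 0.118) and with the replicate number as a block in edgeR (adjusted p = 0.1004), and Mylk with that block (edgeR adjusted p = 0.0632). Without EPO 1 and EPO 2, 3 genes of the list were lower. The smooth muscle markers, 8 of 8 called lower, moved in the same direction as the lower genes here, and their part was not tested.

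Among 7 tested phosphodiesterases other than Pde5a, 2 were higher and 1 lower (median 0.25). Pde3a, which cyclic GMP inhibits, went from 243 ± 26.9 to 121 ± 13.5 CPM (log2 fold change -1.01, SE 0.15, edgeR adjusted p = 0.00454). Pde1b, a calmodulin-dependent enzyme, rose from 14.2 ± 0.69 to 27.9 ± 0.88 CPM (log2 fold change 0.97, SE 0.12, edgeR adjusted p = 0.00279). Pde10a rose from 2.47 ± 0.55 to 5.61 ± 1.30 CPM (log2 fold change 1.18, edgeR adjusted p = 0.0225), a call that was lost without Vehicle 1, Vehicle 3 or EPO 2 (edgeR adjusted p between 0.0667 and 0.0912). The phosphodiesterases thus moved in both directions, with Pde3a and Pde5a lower and Pde1b higher.

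In the list on the use of arginase products, which covers polyamine and proline metabolism as a whole, 5 of 15 tested genes rose and 1 fell (median 0.22). Not all of the 5 act on such a product themselves, as Azin2 and Aldh18a1 show. Summed fibroblast markers were higher in the same libraries (9842 to 12018 CPM in Vehicle and 42912 to 53187 CPM in EPO). Their part in this list was not tested. Azin2, an inhibitor of the antizymes that limit polyamine synthesis, rose from 13.5 ± 2.15 to 43.5 ± 10.2 CPM (log2 fold change 1.68, SE 0.20, edgeR adjusted p = 0.00289). Smox, spermine oxidase, rose from 18.3 ± 2.68 to 42.9 ± 4.21 CPM (log2 fold change 1.23, SE 0.15, edgeR adjusted p = 0.00293). Aldh18a1, which makes the proline precursor from glutamate, rose from 35.1 ± 2.55 to 74.2 ± 8.93 CPM (log2 fold change 1.08, SE 0.13, edgeR adjusted p = 0.00294). Pycr1, the last enzyme of proline synthesis (1.20), and Srm, spermidine synthase (0.59), completed the higher genes, and Oat, which joins ornithine to the proline route, was the lower one (-0.58); these 3 were named after their values were seen. Srm and Oat lost their calls without any 1 Vehicle library, and Srm also without EPO 3 and Oat without EPO 2 (edgeR adjusted p between 0.0569 and 0.130 in these fits), and with all libraries both lost them under the replicate block (edgeR adjusted p = 0.0771 and 0.0564). Odc1, which turns ornithine into the first polyamine, stood at 106 to 113 CPM in Vehicle and 117 to 158 CPM in EPO and did not pass (log2 fold change 0.32, SE 0.14, edgeR adjusted p = 0.142); it was chosen after its value was seen.

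Of 8 tested genes of arginine supply, 2 rose and none fell (median 0.33). Ass1, argininosuccinate synthase, which rebuilds arginine from citrulline, stood at 20.5, 21.7 and 22.7 CPM in Vehicle and 45.6, 53.3 and 42.1 CPM with EPO, for a log2 fold change of 1.12 (SE 0.13, edgeR adjusted p = 0.00277). Slc7a7, the light chain of an exchanger that exports arginine, rose from 15.8 ± 4.07 to 35.1 ± 4.47 CPM (log2 fold change 1.15, SE 0.20, edgeR adjusted p = 0.00810). Its heavy chain Slc3a2 did not pass (0.44, SE 0.18, edgeR adjusted p = 0.123).

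Of 8 partners of the synthases, 2 were lower and none higher (median -0.09). Cav1, caveolin-1, which binds and restrains Nos3, fell from 778 ± 73.0 to 348 ± 39.3 CPM (log2 fold change -1.16, SE 0.16, edgeR adjusted p = 0.00374). The part of the lower smooth muscle and white adipocyte markers in the Cav1 values was not tested. Nos1ap, an adaptor of Nos1, did not pass (-0.31, SE 0.30, edgeR adjusted p = 0.500; 0.03 without Vehicle 1).

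Of 7 genes that supply tetrahydrobiopterin, the cofactor of all 3 synthases, 1 was higher and none lower (median 0.17). Gchfr, the feedback regulator of its synthesis, was at 0.391, 0.428 and 0.242 CPM in Vehicle and 1.12, 0.611 and 1.98 CPM with EPO, for a log2 fold change of 1.81 (SE 0.52, edgeR adjusted p = 0.0424), a call lost without any of the Vehicle libraries or without EPO 1 or EPO 3 (edgeR adjusted p between 0.0613 and 0.127). With all libraries it was also lost in limma-voom (adjusted p = 0.0700) and with the replicate block (edgeR adjusted p = 0.103). Qdpr, which regenerates the cofactor, did not pass (-0.32, SE 0.14, edgeR adjusted p = 0.150), but did without EPO 1 (-0.47, edgeR adjusted p = 0.0193).

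None of the 4 tested genes of the ADMA list passed (median 0.21). Prmt1, the main enzyme that forms ADMA in proteins, stood at 57.5, 49.7 and 60.6 CPM in Vehicle and 67.1, 60.3 and 68.2 CPM with EPO, for a log2 fold change of 0.22 (SE 0.12, edgeR adjusted p = 0.231). Prmt3 (0.32, SE 0.18) and Carm1 (0.19, SE 0.13) had edgeR adjusted p-values of 0.236 and 0.339.

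Of 8 genes that remove nitric oxide or nitrosothiols, 2 were higher and none lower (median 0.05). Mb, myoglobin, stood at 17.6, 0.467 and 4.56 CPM in Vehicle and at 134, 271 and 20.9 CPM with EPO, for a log2 fold change of 4.25 (SE 1.24, edgeR adjusted p = 0.0456), in the order of the skeletal muscle markers over the EPO libraries. Without EPO 1 and EPO 2 its log2 fold change was 1.49 (edgeR adjusted p = 0.525), and it also missed the threshold without any of the Vehicle libraries, without EPO 1 or without EPO 2 (edgeR adjusted p between 0.0520 and 0.127), and with all libraries in limma-voom (adjusted p = 0.0625) and with the replicate block (edgeR adjusted p = 0.0969). Txnrd1, thioredoxin reductase, rose from 110 ± 6.43 to 174 ± 35.5 CPM (log2 fold change 0.66, SE 0.17, edgeR adjusted p = 0.0287), a call lost without any of the libraries except EPO 1 (edgeR adjusted p between 0.0604 and 0.131). Adh5, the nitrosoglutathione reductase, did not pass (-0.26, SE 0.12, edgeR adjusted p = 0.155), but did without EPO 1 (-0.35, edgeR adjusted p = 0.0455).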

How the data were processed

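Aorta RNA was turned into libraries with a NEBNext Ultra kit, for which strand marking is not named, and read as paired ends, per the labels' protocols. CASAVA 1.8 and TopHat2 2.0.6, with the build mm10, are named in the submitters' processing notes; the tool that counted reads and its strand setting were not given in the sources used here. What was deposited are raw counts per Ensembl gene, which was checked on the values. The columns abbreviated Con were read as Vehicle. Symbols, coordinates and exon lengths came from GENCODE M21 (GRCm38, the assembly of mm10): 47224 of 47643 IDs matched.

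From the counts, CPM values were computed with TMM scaling over the tested genes. EPO was compared with Vehicle over all 16522 genes that passed filterByExpr, with edgeR 4.0.16 (R 4.3.3) and its quasi-likelihood test (two-sided, group as the only term, Benjamini-Hochberg adjustment, called at an adjusted p under 0.05). Log2 CPM profiles carried a prior count of 2. The search for nearest profiles left out genes without a symbol, those named Gm and a number, and those ending in Rik. The members and gene lists were chosen with earlier results of these data known. Named are all members, from each pathway list up to 3 tested genes of smallest p (some items are not reported here), the 3 nearest profiles to Arg1, Nos3 and Prkg1, and genes stated as chosen after their values were seen. Alternatives were other scalings and filters, DESeq2 1.42.0, limma-voom (limma 3.58.1), blocking on the replicate number, leaving out haemoglobin and mitochondrial genes or collagen genes, an adjusted p under 0.1, raw counts for family shares, each library left out and, chosen after seeing the data, the fit without EPO 1 and EPO 2. On simulated counts, the procedure made 148 calls, of which 9 were false. It recovered 50 genes changed 2-fold and 89 changed 4-fold, from equal numbers simulated, so the smaller changes were missed more often. Promoter windows came from RefSeq (GRCm38.p6), which had entries for 5 of the 10 members.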

Additional observations from a re-analysis of the deposited data

How the results depend on the processing

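Over 16 alternatives for each of the 10 members (160 values), 146 kept the call of the fit described above, 10 lost a call (Nos2 and Slc7a2), 3 gained one (Prkg1) and 1 changed sign, Nos3 without EPO 1 and EPO 2 (-0.038). Of the 27 called pathway genes, 12 kept their call under every alternative run. Among the pathway genes named, only Nos1ap changed sign, with values from -0.51 to 0.033 when single libraries were left out (0.033 without Vehicle 1). With single libraries left out, the number of genes called ran from 1635 to 4281 (higher 936 to 2265, lower 699 to 2016), against 3804 (2133 and 1671), lowest without Vehicle 1 and next without Vehicle 2 (2029), and that of called pathway genes from 17 (without Vehicle 3) to 31 (without EPO 1), of them 7 to 13 higher, against 27. Without EPO 1 and EPO 2 the genes called were 1548 (1085 higher, 463 lower) and the pathway genes 15, of them 6 lower, with 1 lower maker of cyclic GMP and 3 lower kinase targets; that fit has a single EPO library. The cause of these changes was not tested, though fewer libraries entered each fit. The labels give both groups the same replicate numbers. Deviations from the group means correlated at -0.01, -0.01 and 0.13 between libraries of the same number. Between libraries of different numbers they correlated at -0.10 to 0.12. With 3 libraries per group, these values cannot decide whether the numbers mark pairs. With the replicate block 2884 genes, 20 pathway genes and 5 members were called. As shares of raw counts in place of counts per kb, Ddah1 held 11.9% and 45.1% of its pair in Vehicle and EPO. Nos1, Arg2 in Vehicle and Gchfr rest on few counts, which limits their precision.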
